A study of Caenorhabditis elegans with 2 samples.

Results

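The 59 genes described here encode transcription factors that direct embryonic cells of Caenorhabditis elegans into 5 kinds of tissue, and 1 partner protein that binds DNA only through such a factor. They were taken by name for the known role of each gene, but with earlier results of these data known. All 59 were found among the 19973 nuclear protein-coding genes of the annotation. By textbook role, 9 act in muscle and mesoderm, 5 in the gut, 4 in the pharynx, 9 in the epidermis and 32 in neurons. Binding of SEM-2 near these genes was read from chromatin immunoprecipitation followed by sequencing (ChIP-seq), which recovers DNA bound by a protein and maps it as peaks.

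The samples formed 1 group of 2 biological replicates, numbered 1 and 3, of mixed-sex, mixed-stage embryos of strain OP701, collected by egg bleaching and given an age of 1 hour in the labels. Every animal carried the allele unc-119(tm4063) and the transgene wgIs701, which supplies SEM-2 fused to TY1, EGFP and 3xFLAG together with unc-119(+), and the precipitation used an antibody against GFP. No second condition was sampled, so no test over samples could be made and every comparison below is a description. Whole embryos were used, so strong binding in few cells and weak binding in many cells cannot be told apart, and added copies of sem-2 and unc-119 enter with the transgene. Read counts are not part of these lists. The depth behind a peak is therefore unknown, and no counting error could be given. The spread between the 2 replicate lists is the only measure of error.

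Embryonic tissues of this worm are built by short chains of transcription factors. In the endoderm, the GATA-like factors MED-1 and MED-2 switch on END-1 and END-3, which in turn switch on ELT-2 and ELT-7, the factors that keep gut genes active. PHA-4, a FoxA factor, acts in all cells of the pharynx, and ELT-1, another GATA factor, commits cells to the epidermis. In neurons, proneural basic helix-loop-helix factors act early, and homeodomain, zinc finger and nuclear receptor factors later fix the type of each neuron. SEM-2 is the SoxC factor of the worm. Sox factors bind a short A- and T-rich word through a high mobility group domain.

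For each gene, every peak was taken whose summit lay between 1500 bp upstream of the 5′ end and the 3′ end, and the genes were compared by the number of such peaks and by their signal. The signal value is the authors' own enrichment score for a peak, and rank 1 is the strongest peak of a list. Where a gene is given a value in each list, each is the best of its window in that list. These values may come from different peaks. Each replicate list, and the authors' list made from both replicates together (the combined list), held 30000 peaks and background regions, so most of their entries are weak. Signal ran from 40.2 to 3506 in the combined list, from 24.1 to 3325 in replicate 1 and from 23.1 to 563 in replicate 3, and is compared only within a list. The authors' thresholded list held the 634 strongest combined peaks, 617 of them on nuclear chromosomes, with a lowest signal of 153.

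Few fate regulators had one of the strongest SEM-2 peaks, a share close to that of all genes. Many carried summits of middle rank, but few had one at a q-value of 0.05 or less. Of the 59 genes, 1 had a thresholded summit in its window (1.69%), against 3.21% of all genes. Among the 634 strongest peaks of a single replicate the count was 1 in replicate 1, against 3.16% of all genes, and 4 in replicate 3 (6.78%), against 2.93%, so the side of the background on which the members lie changes between the replicates. In the combined list 40 had a summit (67.8%), against 57.7% of all genes. The count was 40 in replicate 1, where 55.1% of all genes had a summit, and 45 in replicate 3 (76.3%), where 65% did. A summit in each replicate list, not always the same peak, was found at 36 members (61.0%), against 45.6% of all genes. All 3 of these lists held a summit at 33 members, a count not made over all genes. None of them held a summit at 10 members (16.9%), against 24.6% of all genes. Among the 5000 strongest combined peaks, 17 members had a summit (28.8%), against 18.3% of all genes, and among the 10000 strongest 30 had one (50.8%), against 30.3%. At a q-value of 0.05 or less, a stricter cut added after the data had been seen, 9 members had a combined summit (15.3%), against 8.64% of all genes. In replicate 1 the same cut left 8 members, against 8.74% of all genes, and in replicate 3 it left 9, against 9.17%.

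The member windows were also longer than most, with a median of 5167 bp against 3527 bp, and a longer window has more room for a summit. Per 10 kb of window the members held 4.68 combined summits, 4.68 in replicate 1 and 4.91 in replicate 3, and all genes held 3.24, 3.21 and 3.27. The median over single genes was 3.53 per 10 kb for members and 2.38 for all genes, and 30 of 59 members lay above the mean density of all genes. In all, 169 combined summits lay in the member windows, and no combined peak served more than 1 member. Peaks of the combined list can overlap each other, so neighbouring summits are not always separate regions. Of these 169 peaks, 1 was among the 634 strongest (0.592%), against 2.06% of all nuclear peaks. A further 34 held ranks 635 to 5000 (20.1% against 14.6%) and 35 held ranks 5001 to 10000 (20.7% against 16.7%). The lower ranks, from 10001 to 30000, held the other 99.

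**Figure D1:**
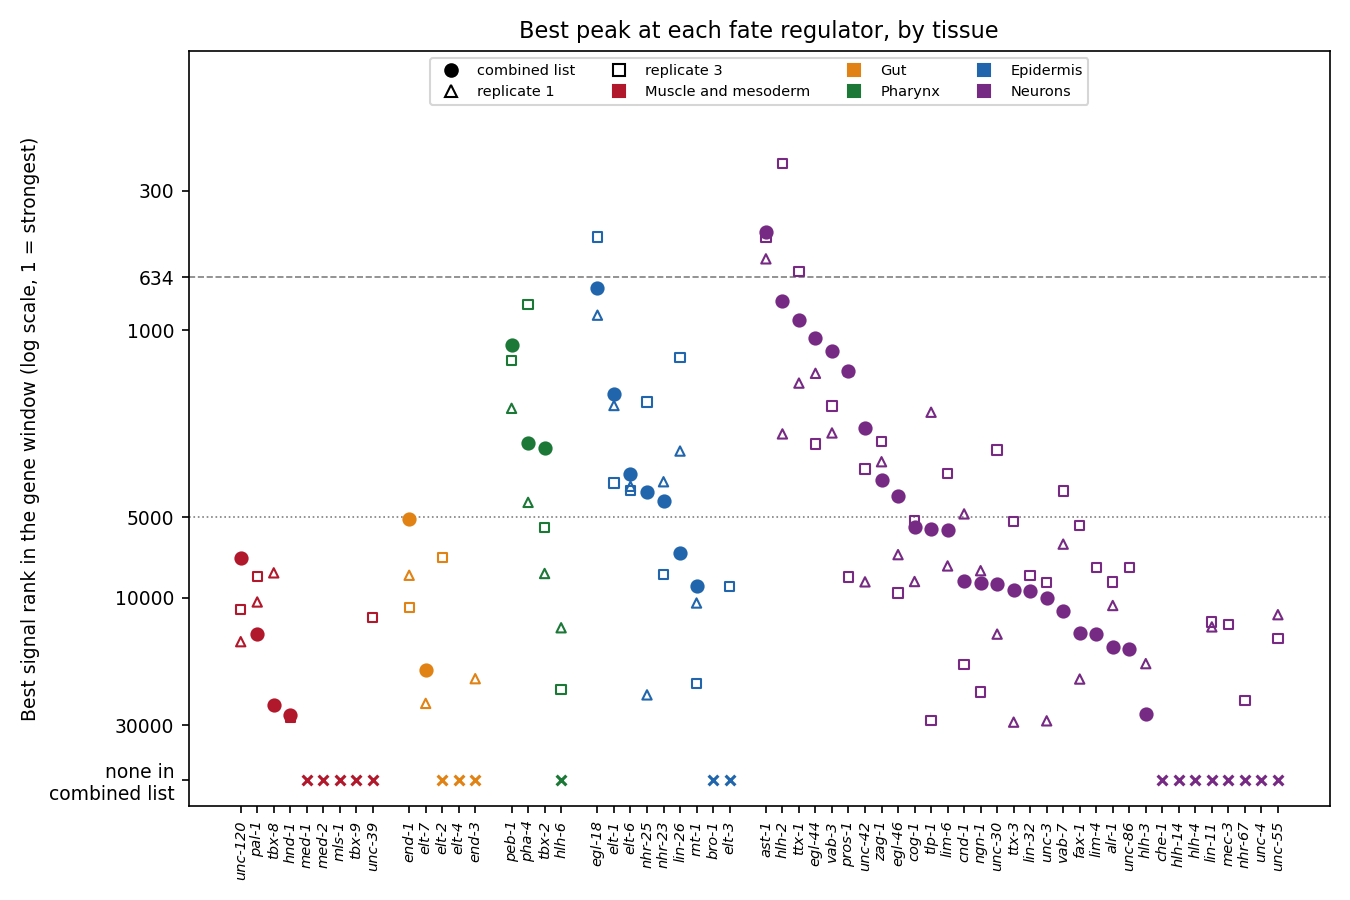
The plot gives the best signal rank (log scale, 1 is the strongest peak) in the window of each of the 59 genes, by tissue. Filled circles are the combined list, open triangles replicate 1 and open squares replicate 3, crosses mark genes with no combined summit, and a replicate with no summit has no symbol. The dashed line is the end of the thresholded list (634), and ast-1 at rank 427 is the only filled circle above it. No symbol of the muscle and mesoderm or gut genes lies above the dotted line at rank 5000.

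The sequence under the summit is shown for 12 of the stronger member peaks, among them the best peak of 3 pharynx genes and that of end-1, the best of any gut gene. The hlh-2 peak is not shown. Each holds the combined summit and the 50 bases on either side, from the plus strand of WBcel235 (RefSeq sequence), 5′ to 3′, and capitals mark the Sox consensus words described further on.
ast-1, chrII:4130399-4130499: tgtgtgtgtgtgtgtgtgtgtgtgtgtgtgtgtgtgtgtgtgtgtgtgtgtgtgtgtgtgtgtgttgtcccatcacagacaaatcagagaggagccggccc
egl-18, chrIV:1912744-1912844: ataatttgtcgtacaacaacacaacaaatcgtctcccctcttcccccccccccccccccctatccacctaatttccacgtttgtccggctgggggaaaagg
egl-18, chrIV:1905430-1905530: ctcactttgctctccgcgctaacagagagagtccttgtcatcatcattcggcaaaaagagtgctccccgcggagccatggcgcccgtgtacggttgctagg
ttx-1, chrV:20061663-20061763: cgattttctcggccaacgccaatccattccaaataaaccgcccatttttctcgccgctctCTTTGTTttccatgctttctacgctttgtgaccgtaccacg
egl-44, chrII:5933268-5933368: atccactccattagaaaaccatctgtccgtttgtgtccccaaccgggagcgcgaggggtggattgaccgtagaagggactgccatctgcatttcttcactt
peb-1, chrX:2213806-2213906: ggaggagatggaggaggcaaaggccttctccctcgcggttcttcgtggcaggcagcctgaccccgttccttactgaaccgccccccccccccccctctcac
vab-3, chrX:10516148-10516248: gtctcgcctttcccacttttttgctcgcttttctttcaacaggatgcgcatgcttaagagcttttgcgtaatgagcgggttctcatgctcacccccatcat
pros-1, chrIII:8069404-8069504: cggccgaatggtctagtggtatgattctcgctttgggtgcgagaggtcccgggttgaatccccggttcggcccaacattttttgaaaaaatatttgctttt
elt-1, chrIV:9615568-9615668: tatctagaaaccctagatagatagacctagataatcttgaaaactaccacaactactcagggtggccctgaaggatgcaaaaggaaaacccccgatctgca
pha-4, chrV:20751552-20751652: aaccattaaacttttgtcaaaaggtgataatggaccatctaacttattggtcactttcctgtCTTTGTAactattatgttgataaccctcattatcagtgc
tbx-2, chrIII:5136305-5136405: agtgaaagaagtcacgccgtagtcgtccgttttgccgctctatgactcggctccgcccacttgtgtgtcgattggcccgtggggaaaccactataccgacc
end-1, chrV:13986656-13986756: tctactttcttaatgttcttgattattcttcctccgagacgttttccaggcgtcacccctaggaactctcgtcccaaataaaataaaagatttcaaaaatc
The ast-1 window opens with 65 bases of TG repeat. The egl-18 window at the higher rank holds a run of 18 C, and the peb-1 window a run of 15 C. The pros-1 window lies on a tRNA gene. A Sox consensus word is present in the ttx-1 and pha-4 windows and in none of the other 10.

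Among the early neural factors, hlh-2 carried the strongest peaks. It encodes the worm E protein, the partner of the proneural factors. Its best peak (chromosome I, 7194735 to 7195170, 1033 bp upstream) had signal 143 and rank 773 in the combined list. The best peak in the window had signal 63.1 and rank 2438 in replicate 1, and signal 100.5 and rank 237 in replicate 3. The replicates did not place the strength at the same point, since the replicate 1 peak over the best combined peak held rank 10166. The achaete-scute relatives hlh-4 and hlh-14 had no summit in any list, and hlh-3 had 1 combined summit at rank 27261 and 1 in replicate 1 at rank 17623. The atonal homologue lin-32 had its best combined peak at rank 9396, the neurogenin ngn-1 at rank 8794 and the NeuroD homologue cnd-1 at rank 8637. Each of these 3 genes had 1 combined summit, in contrast to the 5 of hlh-2, some of them in overlapping peaks.

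The gene with the thresholded peak was ast-1, an ETS factor required for dopaminergic neurons. Its best peak lay in an intron, 4910 bp from the 5′ end (chrII:4130231-4130666). Signal there was 182 in the combined list, 107 in replicate 1 and 81.1 in replicate 3, at ranks 427, 540 and 449, so it was strong in both replicates. The window held 8 combined summits, 7 in replicate 1 and 8 in replicate 3, and the next best, in a coding exon, held rank 2003. The summit lies on the TG repeat printed above. Repeats of TG or CA of 12 bases or more lay under 4 of the 169 member summits (2.37%) and under 0.614% of all nuclear combined summits. The share that the repeat has in this peak was not tested. The member peak nearest below the threshold was that of egl-18 at rank 693, with signal 149.

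Of the factors that set neuron type, the strongest after ast-1 were ttx-1, egl-44, vab-3 and pros-1, all with their best peak in an intron. The Otx homologue ttx-1, which specifies the AFD thermosensory neuron, had signal 136 in the combined list, 71.4 in replicate 1 and 74.9 in replicate 3 (ranks 917, 1574 and 602), in 9, 10 and 5 summits. The TEAD factor egl-44 had signal 128, 73.3 and 52.9 in the same order, at ranks 1067, 1447 and 2656. The Pax-family gene vab-3 had signal 124, 63.2 and 57.0 (ranks 1194, 2418 and 1916), in 10, 10 and 11 summits. At these 3 genes the best peak kept a rank within the 5000 strongest in every list. The Prospero homologue pros-1, known from glia, was less even, with signal 118, 73.9 and 39.5 at ranks 1414, 1417 and 8358. Its peak is the only member peak within 100 bp of a tRNA, snoRNA or snRNA gene, where 1.81% of nuclear combined peaks lie.

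Below these came zag-1, a zinc finger homeodomain factor, with signal 90.6 in the combined list, 59.1 in replicate 1 and 53.2 in replicate 3 (ranks 3637, 3098 and 2606) and 8, 10 and 8 summits. It had a peak among the 5000 strongest in each replicate, but these peaks did not overlap each other. The homeodomain gene unc-42 had best signal 102, 43.2 and 50.4 in its window (ranks 2324, 8716 and 3300). Its best combined summit lay in the 5′ UTR, 14 bp from the 5′ end, where the replicate 3 peak held rank 3796. The zinc finger gene egl-46, a partner of egl-44, held ranks 4175, 6895 and 9588. The zinc finger gene tlp-1 shows the spread between replicates at its widest among the neural genes, with rank 5528 in the combined list, 2023 in replicate 1 and 28773 in replicate 3. The best combined ranks of cog-1, lim-6, unc-30, ttx-3, unc-3, vab-7, fax-1, lim-4, alr-1 and unc-86 ran from 5456 (cog-1) to 15591 (unc-86). The gene vab-7, at rank 11199, stands 11408 bp from unc-119, another gene that the transgene carries. Among them are factors of motor neurons (unc-3, unc-30), of the AIY interneuron (ttx-3) and of touch receptor neurons (unc-86). No list held a summit at che-1, which specifies the ASE taste neurons, or at unc-4, a motor neuron gene. The genes mec-3, nhr-67, lin-11 and unc-55 had replicate summits only, none of them within the 5000 strongest.

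In the pharynx, 3 of 4 genes had combined summits, all 3 among the 5000 strongest, at a density of 8.23 per 10 kb (8.23 in replicate 1, 6.80 in replicate 3). The best peak of peb-1, a DNA-binding protein of the pharynx, lay in an intron 2805 bp from the 5′ end (chrX:2213638-2214073). The best signal in its window was 125 in the combined list, 67.02 in replicate 1 and 62.05 in replicate 3, at ranks 1138, 1956 and 1297, with 9, 6 and 9 summits. The window of pha-4 held 10, 11 and 6 summits, with best signal 98.7, 53.6 and 69.8 at ranks 2634, 4396 and 801. The best combined summit of pha-4, 1450 bp upstream (chrV:20751384-20751819), lay over a replicate 1 peak of rank 17774 and a replicate 3 peak of rank 2120, so here too the replicates differ in where the strength lies. The T-box gene tbx-2, needed for pharyngeal muscle, had its best summit 59 bp upstream, with signal 97.6, 44.3 and 44.5 at ranks 2744, 8110 and 5449. The gland gene hlh-6 had no combined summit and 1 in each replicate, at ranks 12941 and 22012. All 4 genes thus had a summit in both replicates.

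In the epidermis, 7 of 9 genes had combined summits, and 5 had one among the 5000 strongest, a count that was 5 in each replicate too, at 6.64 summits per 10 kb (6.51 in each replicate). ELT-1 acts at the top of this program. The best peak of elt-1, in an intron 623 bp from the 5′ end (chrIV:9615400-9615835), had signal 111 in the combined list, and the best signal was 67.5 in replicate 1 and 48.9 in replicate 3 (ranks 1725, 1909 and 3718). The zinc finger gene lin-26, which maintains epidermal fate, had signal 76.1, 60.5 and 62.4 at ranks 6778, 2826 and 1260, lower in the combined list than in either replicate. Its best combined summit lay upstream, inside the gene lir-1, and the best replicate peaks lay elsewhere in the window. The nuclear receptor nhr-25 held ranks 4032, 23063 and 1853, and nhr-23, a receptor of the molting cycle, held 4344, 3681 and 8170. The Runx gene rnt-1, a regulator of seam cell division, had 7 combined summits. The best, at rank 9044, lay upstream, inside the gene hil-5. The rnt-1 partner bro-1 had no summit in any list. The gap between bro-1 and sem-2, whose added copies the transgene carries, is 15289 bp. The GATA gene elt-3 had summits in replicate 3 only.

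The member window with the most summits was that of egl-18, a GATA gene of the seam cells that stands beside its paralogue elt-6. The 17019 bp window of egl-18 held 19 combined summits, 18 in replicate 1 and 18 in replicate 3, which places it 40th of all genes by number of combined summits. Of the 19, 14 lay in introns, 3 upstream and 2 in coding exons, 8 were among the 5000 strongest, and 14 were overlapped by a peak in both replicates. Some of these combined peaks overlap each other and meet the same replicate peaks, such as those with summits 3158 bp and 3359 bp downstream. The counts are therefore of summits and not of separate regions. The best signal was 149 in the combined list, 86.8 in replicate 1 and 81.3 in replicate 3, at ranks 693, 877 and 447. The top combined summits lay 10472 bp and 3158 bp downstream of the 5′ end, and the former is nearer to the 5′ end of elt-6. The window of elt-6 held 3 combined summits, 8 in replicate 1 and 5 in replicate 3. Its best, 10 bp upstream of the 5′ end, had signal 91.9, 55.7 and 48.2 at ranks 3457, 3828 and 3976. The windows of the 2 genes share 3 replicate 1 peaks and 1 replicate 3 peak, which were counted for both. Without egl-18 and elt-6, a comparison added after the data had been seen, the epidermal density was 5.24 and that of all members 4.34 combined summits per 10 kb.

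**Figure D2:**
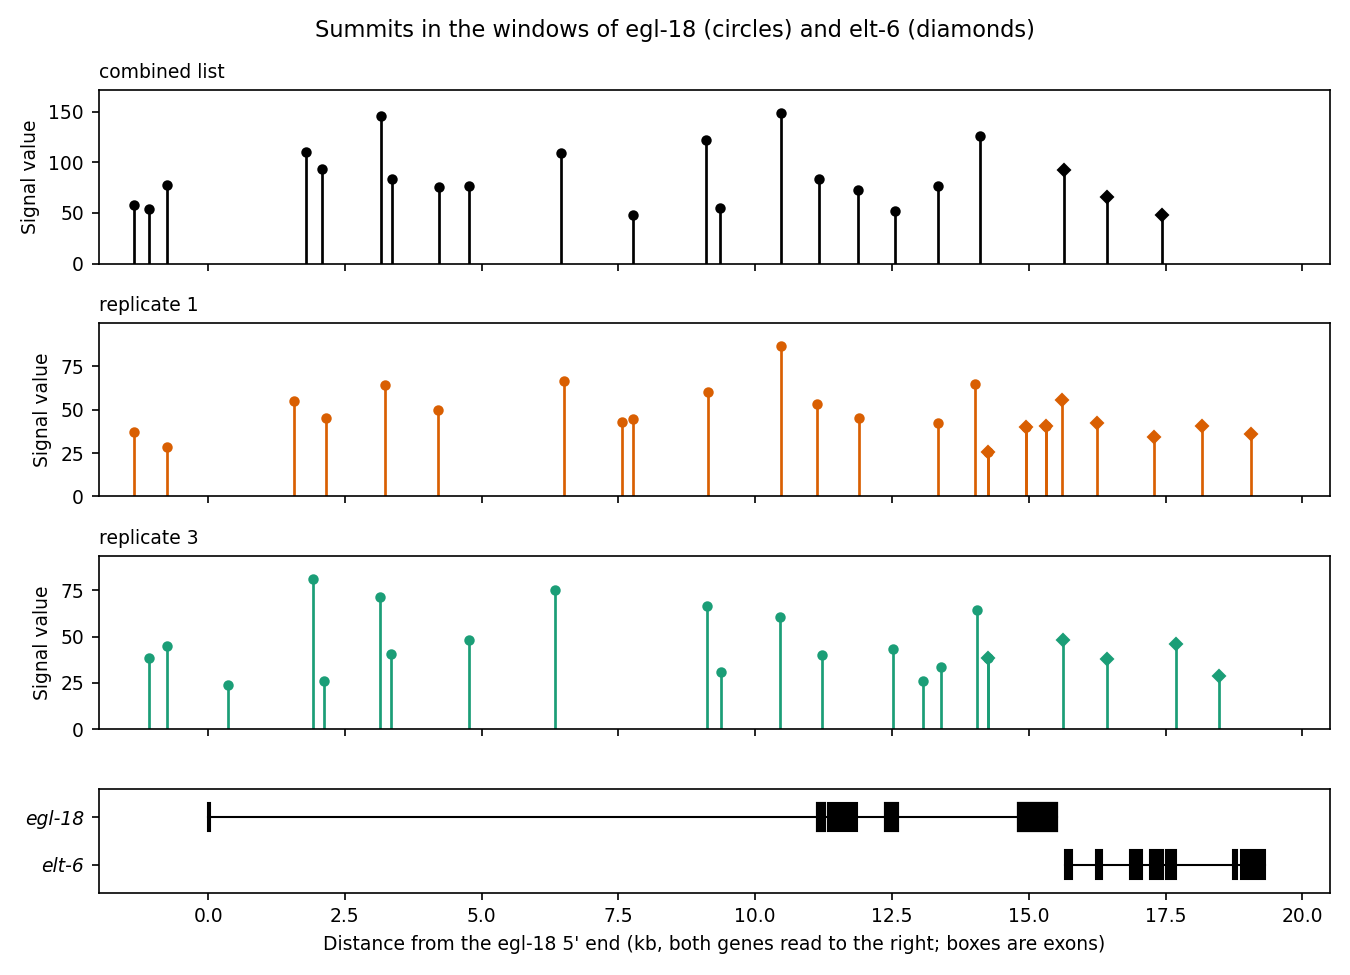
Each stem is 1 summit in the window of egl-18 (circles) or elt-6 (diamonds), at its distance in kb from the egl-18 5′ end, and its height is the authors' signal value in the combined list, replicate 1 and replicate 3 from top to bottom. The lowest row draws the exons as boxes. The stems at 10.472 kb and 3.158 kb are the tallest of the combined list, and stems stand through the introns of egl-18 in all 3 lists.

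In the gut, 2 of 5 genes had a combined summit and none was among the 5000 strongest of any list. The endoderm gene end-1 had 1 combined summit, in an intron 1578 bp from the 5′ end (chrV:13986488-13986923), with signal 82.9 at rank 5078. Its best signal was 44.02 in replicate 1 and 36.4 in replicate 3, at ranks 8234 and 10858. The gene elt-7 had 1 combined summit with signal 52.2 at rank 18599, 1 in replicate 1 with signal 27.3 at rank 24815, and none in replicate 3. The neighbour in the chain, end-3, had 2 summits in replicate 1 only, the best at rank 20062, and elt-2 had 3 in replicate 3 only, the best at rank 7046. The small GATA gene elt-4 had none. Of the 5 gut genes, end-1 was therefore the only one with a summit in both replicates.

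In muscle and mesoderm, 4 of 9 genes had a combined summit, again with none among the 5000 strongest of any list. Some other regulators of muscle and gut, described further on, had stronger peaks. Among the 9 members the best was at unc-120, an SRF-like factor that acts in body wall muscle. The best signal in its window was 74.9 in the combined list, 35.6 in replicate 1 and 36.2 in replicate 3 (ranks 7125, 14588 and 11028). The replicate 3 peak over the best combined summit held rank 14086. The caudal homologue pal-1, which specifies posterior muscle and epidermis, had signal 59.7, 40.7 and 39.6 at ranks 13702, 10364 and 8315. The best combined summit of pal-1 lay upstream, inside the gene C38D4.7, whose 5′ end was nearer. Only unc-120 and pal-1 among the mesodermal members had a summit in both replicates. At pal-1 these were different peaks, and no combined peak there was overlapped in both. The T-box gene tbx-8 had signal 44.7 at rank 25165 in the combined list. In replicate 1 its best signal was 44.4 at rank 8065, at a peak that overlapped no combined peak. The HAND factor hnd-1 had signal 42.5 at rank 27357 in the combined list and 24.1 at rank 28035 in replicate 3. The combined peak of hnd-1 was overlapped in neither replicate. The Six-family gene unc-39 had 1 summit, in replicate 3. No list held a summit at tbx-9, mls-1, med-1 or med-2. The genes med-1 and med-2 are identical at 512 of 525 aligned bases (97.5%), and their whole windows at 1569 of 2236 (70.2%). Reads from the genes themselves may have been split or left unplaced. This was not tested, and the lack of peaks at these 2 genes is uncertain.

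**Figure D3:**
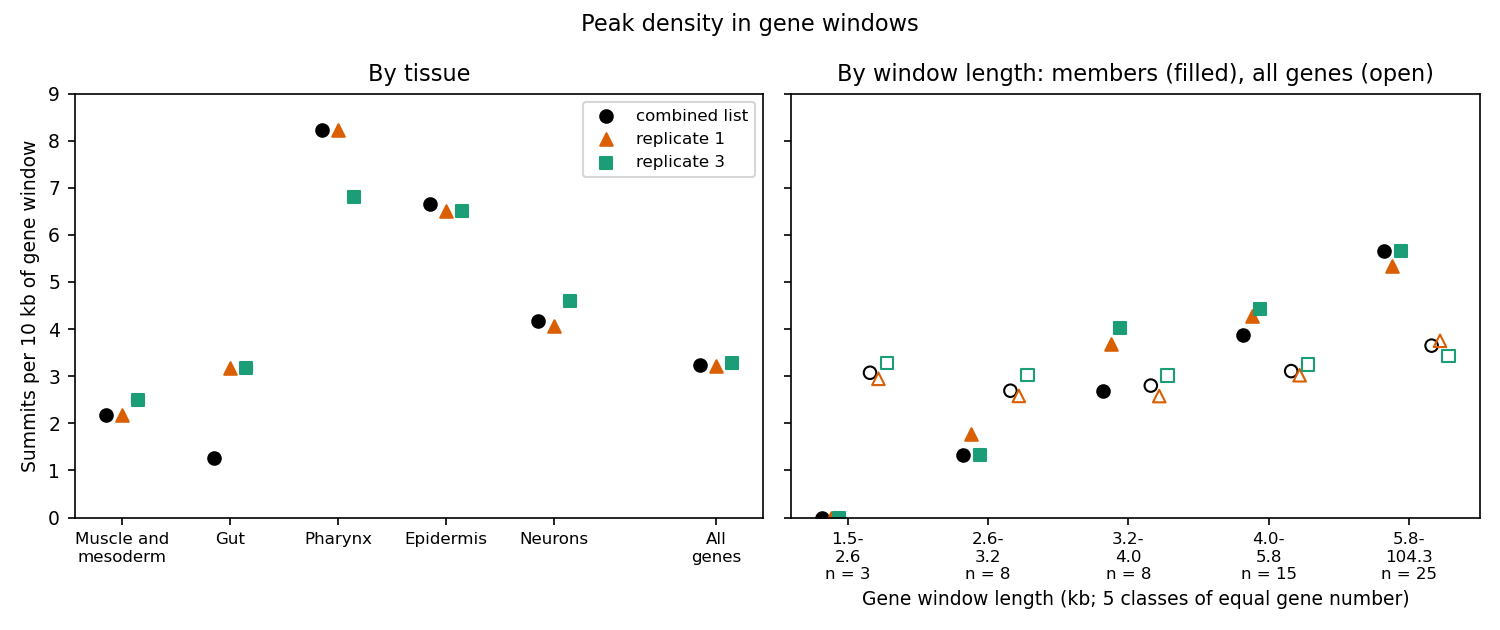
The left panel gives combined (circles), replicate 1 (triangles) and replicate 3 (squares) summits per 10 kb of gene window for the genes of each tissue and for all genes. The right panel gives the same by window length for members (filled) and all genes (open), with the number of members in each class. Pharynx and epidermis lie above 6 in all 3 lists, all genes lie between 3.21 and 3.27, and members exceed all genes in the longest class.

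Window length differed between the tissues. Median windows were 3353 bp for mesoderm, 3447 bp for gut, 5658.5 bp for neurons, 6972 bp for epidermis and 7820 bp for pharynx. The median best rank of genes with a combined summit was 19433.5, 11838.5, 7113, 4032 and 2634 in that order, and 9366.5 over all genes. These medians leave out genes without a summit and change with the list. In replicate 1 they were 10364, 20062, 7599, 3681 and 6253, so gut came after mesoderm and pharynx after epidermis, and in replicate 3 they were 11440.5, 8952, 7710, 3847 and 3373. With genes that lack a combined summit placed below the list, the median was below the list for mesoderm and gut, 9372.5 for neurons, 4344 for epidermis and 2689 for pharynx, and 22481 over all genes. When all genes were divided into 5 classes of window length, 25 members fell in the longest, from 5822 bp upward, and there held 5.65 combined summits per 10 kb against 3.65 for all genes of the class. Replicate 1 gave 5.35 against 3.75 and replicate 3 gave 5.65 against 3.43. In the class below, with 15 members, the values were 3.87 against 3.11 in the combined list, 4.28 against 3.02 in replicate 1 and 4.42 against 3.25 in replicate 3. The middle class, with 8 members, changed side between the lists, with 2.69 against 2.80 in the combined list but 3.69 against 2.58 in replicate 1 and 4.03 against 3.02 in replicate 3. In the second shortest class 8 members held 1.33 against 2.69, with 1.77 against 2.58 in replicate 1 and 1.33 against 3.03 in replicate 3, and the 3 members of the shortest class, med-1, med-2 and elt-4, held none in any list. The share of genes with a combined summit differed less in the longest class, 84% of members against 81.6% of all genes, than the density did.

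Within the 2 longest classes the tissues held 9.17 combined summits per 10 kb for the 3 pharynx genes, 7.01 for 8 epidermal genes, 4.21 for 26 neural genes and 3.34 for 3 mesodermal genes, against 3.48 for all genes. Replicate 1 gave 8.77, 6.86, 4.16 and 2.67 in that order, against 3.52, and replicate 3 gave 7.18, 6.86, 4.62 and 4.67, against 3.37. Pharynx, epidermis and, by less, neurons stood above all genes in all 3 lists. The place of mesoderm below neurons and below all genes did not hold in replicate 3. No gut gene reached these classes. Within the 3 shorter classes, 6 neural genes held 3.74, 5 gut genes 1.27 and 6 mesodermal genes 1.17, against 2.83 for all genes. For neurons replicate 1 gave 3.20 and replicate 3 gave 4.27, and for mesoderm they gave 1.75 and 0.584. The gut value rests on 2 combined summits, and each replicate alone gave 3.17, above the 2.67 and 3.09 of all genes of those lengths in replicate 1 and replicate 3. With so few genes in a tissue and length so unevenly spread, tissue and window length cannot be told apart for gut and mesoderm.

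Introns were denser in summits at members than at all genes in all 3 lists. They held 99 of the 169 member summits (58.6%) while making up 51.3% of the member windows, and over all genes they held 33.0% of summits in 36.6% of the window. Per 10 kb of intron the members held 5.35 combined summits, 5.24 in replicate 1 and 5.02 in replicate 3, against 2.92, 3.30 and 2.52 for all genes. Without egl-18 and elt-6 the member values were 4.97, 4.91 and 4.55. In the 2 longest classes they were 5.64, 5.59 and 5.24, against 2.99, 3.41 and 2.52 for all genes of those classes. Upstream regions held 34 combined summits at 3.84 per 10 kb against 3.11, with 3.84 against 3.24 in replicate 1 and 3.95 against 2.98 in replicate 3. Coding exons held 24 at 4.03 against 3.81, with 4.03 against 2.92 and 5.72 against 4.75 in the replicates. Non-coding exon parts held 12 at 4.35 against 3.49, with 5.07 against 3.91 and 5.44 against 2.90. Members lay above all genes in every kind of place and every list, and the size of the gap changed with the list. Of the 35 member peaks among the 5000 strongest, 25 lay in an intron (71.4%), against 31.8% of such summits in the windows of all genes. The window of egl-18 held 8 of the 35, all of them in introns. Of the other member peaks at those ranks, 5 lay upstream (14.3% against 39.2%) and 2 in a coding exon (5.71% against 23.6%). A UTR held 3 (8.57%, against 5.37% in non-coding exon parts). An intronic peak among the 5000 strongest was found at 11 members (18.6%), against 5.998% of all genes. This share was not adjusted for intron length, and introns make up 51.3% of the longer member windows against 36.6%. The annotated 5′ end of another protein-coding gene was nearer for 32 of the 169 summits (18.9%), against 33.2% of the summits in all gene windows. Of the 169, 28 lay within 100 bp of a non-coding RNA gene of any kind (16.6% against 6.26%). The windows of peb-1 and egl-18 each held several of these 28, so they were not spread evenly over the members.

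**Figure D4:**
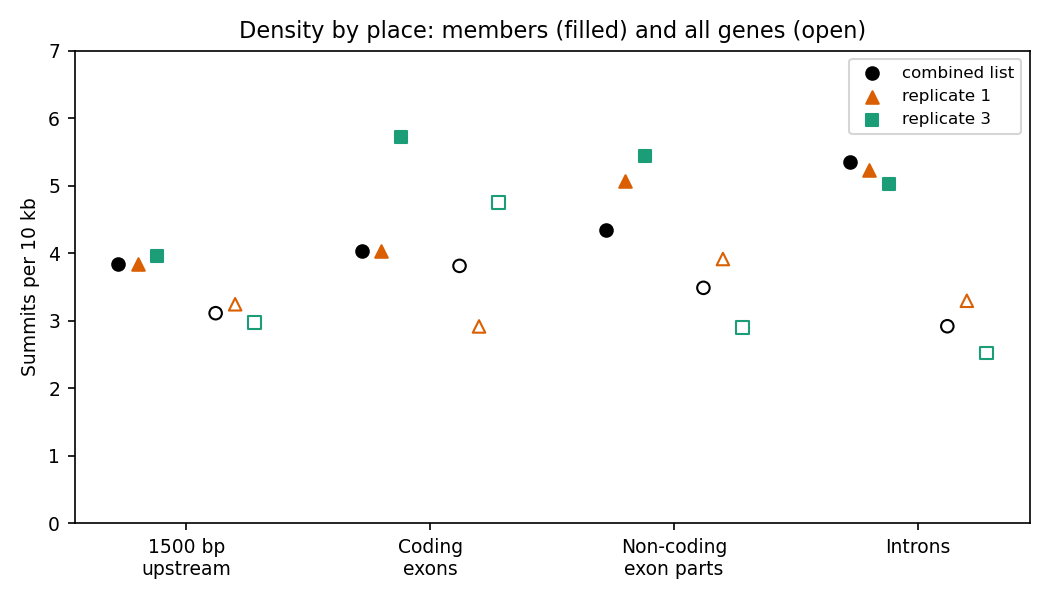
Summits per 10 kb are shown for the 1500 bp upstream, coding exons, non-coding exon parts and introns of the gene windows, for members (filled) and all genes (open), in the combined list (circles), replicate 1 (triangles) and replicate 3 (squares). The member symbols stand above 5 in introns in all 3 lists, where the open symbols lie between 2.52 and 3.30.

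The replicates overlapped at the strong member peaks but often ranked them differently. All 35 member peaks among the 5000 strongest combined peaks were overlapped by a peak in both replicates, against 91.6% of the 4982 nuclear peaks at those ranks. This overlap is easily met, since each replicate list holds 30000 peaks and the combined list was made from both. Counting only overlaps with the 5000 strongest of a replicate, 21 of the 35 were met in replicate 1 (60%), 24 in replicate 3 (68.6%) and 15 in both (42.9%), against 63.4%, 57.1% and 33.3% of the nuclear peaks at those ranks. Of the weaker member peaks 43.3% were overlapped by any peak in both replicates, against 41.6%. Over all 169, 93 were overlapped in both replicates (55.03% against 49.9%), 34 in replicate 1 only, 36 in replicate 3 only and 6 in neither. Each replicate had a summit among its 5000 strongest, not always at the same peak, at 12 members (20.3%), against 9.46% of all genes. These were pha-4 and peb-1 in the pharynx, elt-1, lin-26, egl-18 and elt-6 in the epidermis, and hlh-2, vab-3, ast-1, egl-44, ttx-1 and zag-1 in neurons. At hlh-2, pha-4 and zag-1 the peaks at those ranks did not overlap between the replicates. Across the 36 members with a summit in both replicates, Spearman's rho of the best ranks was 0.473, given as a description since both lists share the genome, the strain and the window lengths. Summits were in replicate 1 only at tbx-8, end-3, elt-7 and hlh-3, and in replicate 3 only at hnd-1, unc-39, elt-2, elt-3, lin-32, unc-86, mec-3, lim-4 and nhr-67. The share of all genes with a summit in a single replicate only was not computed.

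**Figure D5:**
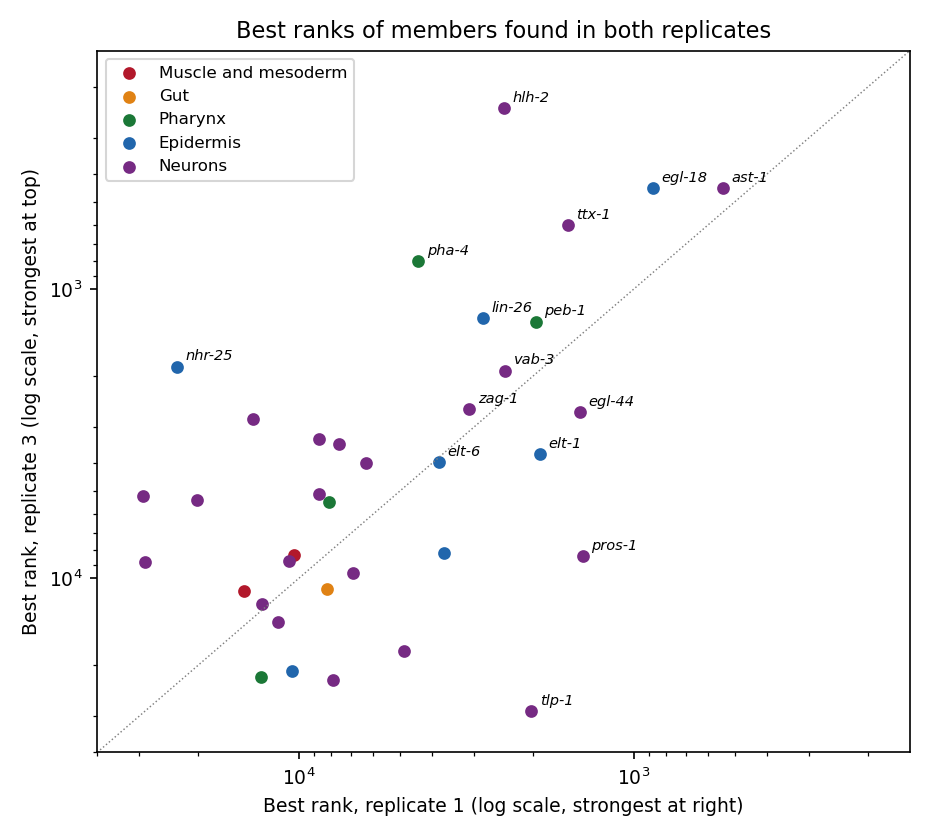
Each point is 1 of the 36 genes with a summit in both replicates, placed by its best rank in replicate 1 and replicate 3 (log scales, strongest at top right) and coloured by tissue, with the diagonal dotted. The genes ast-1 and egl-18 lie in the strong corner, while tlp-1 and nhr-25 lie far from the diagonal on opposite sides.

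The Sox consensus was about as common under member peaks as under all peaks. It was searched as 8 words of 7 bases on either strand (AACAAAG or AACAATG, with ATCAAAG or ATCAATG, with TACAAAG or TACAATG, and with TTCAAAG or TTCAATG) within 50 bp of each combined summit. A match was found at 23 of 169 member summits (13.6%) and at 12.4% of all nuclear summits. Among the 5000 strongest it was found at 4 of 35 member summits (11.4%), against 10.4%. The G and C content was 44.2 ± 9.63% (SD over 169 windows) for members and 42.7 ± 8.96% for all nuclear peaks. Runs of 8 or more C or G were present in 5 member windows (2.96%), against 0.961% of all, and those of egl-18 and peb-1 are printed above. A match is a description of the sequence and not a site, and windows without a match say only that these letters are not there.

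A second list, also drawn up by textbook role, held 36 other regulators of the same tissues. Of these, 4 had a thresholded summit (11.1%), against 3.21% of all genes. A combined summit was found at 33 (91.7%), against 57.7%, and one among the 5000 strongest at 18 (50%), against 18.3%. They held 6.30 combined summits per 10 kb against 3.24, in a median window of 6021.5 bp against 3527 bp. In the 2 longest length classes the shares of all genes were 4.92%, 73.3% and 28.1% in that order. The Nemo-like kinase lit-1 of the Wnt pathway led, with ranks 360, 479 and 223 in the combined list, replicate 1 and replicate 3. The TCF factor pop-1, which divides endoderm from mesoderm together with LIT-1, held 446, 616 and 285. The Meis homologue unc-62 held 542, 1549 and 232, and lag-1, the nuclear effector of Notch signalling, held 600, 586 and 803. The T-box gene tbx-38, a Notch-repressed gene of the anterior pharynx lineage, came next at 778, 3322 and 1548. The other mesoderm and gut regulators did not all share the weak peaks of the members of those tissues. All 3 mesodermal genes of this list and all 4 gut genes had a combined summit, and 2 of each were among the 5000 strongest. The gut genes in that count are lit-1 and pop-1. The mesodermal ones, named after their values were seen, are the muscle gene hlh-1, the MyoD homologue, with ranks 1459, 1719 and 1745, and the homeobox gene ceh-51, with 3716, 5814 and 8416. As with the fate regulators, the windows of this list are longer than those of all genes.

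Members on X numbered 15 and held 3.78 combined summits per 10 kb, against 2.91 for all X genes. The 44 autosomal members held 5.03, against 3.30 for all autosomal genes.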

How the data were processed

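The authors deposited 4 narrowPeak lists on ce11, per the labels, which is the same sequence as WBcel235. The lists are 1 of peaks and background for each replicate, 1 combined and 1 thresholded. Chromatin was sheared to 200 to 800 bp, per the labels. Each list gives a signal value per peak, deposited by the authors with no scaling stated, a −log10 q-value deposited by the authors, and the summit's offset from the peak start. For the caller, aligner and thresholds, the sources used here give no name. The highest −log10 q-value of the combined list, 1.92, is shared by 791 peaks. A control named in the labels was not analysed here.

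Summits were assigned to gene windows of Ensembl release 115, from 1500 bp upstream of the 5′ end to the 3′ end, with mitochondrial peaks left out. Shares, best ranks and summits per 10 kb were set beside all nuclear protein-coding genes. A peak was overlapped in a replicate when the intervals shared 1 bp or more. Python 3.11.15, pandas 2.3.3, numpy 2.4.6 and biopython 1.88 were used, and the assignment was tested on simulated data. The members and lists were chosen with earlier results of these data known. Values in every list were given for genes with a thresholded summit, the 3 strongest of each tissue, the 10 strongest overall and those among the 5000 strongest of both replicates. Other members were named with a rank or as lacking peaks. The alternatives were other windows, stricter lists, own-gene summits, summits away from RNA genes and each replicate alone. Those at a q-value of 0.05, without egl-18 and elt-6, and with med-1 and med-2 counted as gut were added after seeing the data.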

Additional observations from a re-analysis of the deposited data

How the results depend on the processing

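No paired analysis was possible because the samples formed 1 group with no second condition. The count of members with a thresholded summit was 0 with a window of 1500 bp upstream to 500 bp downstream of the 5′ end and 0 above the list's median signal, and 1 to 4 with the 634 strongest peaks of a single replicate. The count with a combined summit was 9 at a q-value of 0.05 and 40 to 45 in single replicates. The count among the 5000 strongest was 6 in the 5′ window and 16 to 17 in single replicates. Summits per 10 kb were 3.81 in the 5′ window, 4.96 in the gene body, 4.99 by peak interval, 1.94 for the 10000 strongest, 2.58 for peaks overlapped in both replicates, 4.34 without egl-18 and elt-6, and 4.68 to 4.91 in single replicates. Values over all genes were not computed for the other windows, for peak intervals, or for densities in stricter lists. Whether members differ from all genes under those settings was not tested.

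The share of mesodermal genes with a summit was 11.1% with the 10000 strongest and with peaks overlapped in both replicates, 0% at a q-value of 0.05 and 33.3% to 44.4% in single replicates. The gut share was 0% at a q-value of 0.05 and 40% to 60% in single replicates, and the pharynx share was 100% in each. With med-1 and med-2 counted as gut, the mesodermal share was 57.1% and the gut share 28.6%. The epidermal share was 22.2% at a q-value of 0.05. The neural share was 50% in the 5′ window, 56.25% with the 10000 strongest and with peaks overlapped in both replicates, and 18.75% at a q-value of 0.05. The median best rank of mesoderm was 20589 for summits that lay inside the gene or nearest its own 5′ end. In single replicates it was 10364 to 11440.5, that of gut 8952 to 20062 and that of pharynx 3373 to 6253. That of epidermis was 6778 in the 5′ window, 4344 in the gene body, 1876 by interval and 3681 to 3847 in single replicates. That of neurons was 9694.5 in the 5′ window, 8132 with 500 bp upstream, 5589 in the gene body, 8637 by interval, 7209 without RNA-gene summits and 7599 to 7710 in single replicates. The cause of these shifts was not tested. The depth is unknown, so a gene without a summit is not shown to be unbound.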
